A study of Homo sapiens with 12 samples.

Results

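The clustered histone genes are the replication-dependent histone genes, 55 of which stand on chromosome 6, 14 on chromosome 1 and 1 on chromosome 12. They were taken as every row of the counts table whose name begins with HIST1H, HIST2H, HIST3H or HIST4H, which gave 70 of 38021 gene names, and the 32 with a summed count of 50 or more over the 12 libraries were compared between groups. The libraries came from 786O, a clear cell renal cell carcinoma line that lacks functional VHL, and from WT8, a line derived from 786O that expresses wildtype VHL. Each line carried lentiviral pLKO.1 shRNA, either a scrambled sequence (shControl) or one against BMAL1 (shBMAL1), and all cells were selected in puromycin, so the control cells had been infected and selected too. The 4 groups of 3 biological replicates were thus 786O shControl, 786O shBMAL1, WT8 shControl and WT8 shBMAL1. VHL expression is represented by a single derivative line, and the labels name the depleting construct only as shBMAL1. The comparisons ask what BMAL1 depletion changes where VHL is absent and where it is expressed.

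Histones package DNA: H2A, H2B, H3 and H4 form the nucleosome core, and H1 binds the linker DNA between cores. Most of their messages come from clustered, intronless genes that are transcribed in S phase, and these messages end in a conserved stem-loop in place of a poly(A) tail. The stem-loop is bound by SLBP, the U7 snRNP with LSM10, LSM11 and ZNF473 directs the cut behind it, and NPAT drives transcription at histone locus bodies. Some of the same genes can also give polyadenylated messages, above all when cells leave the cycle, and an mRNA library sees mainly those. BMAL1 pairs with CLOCK at E-boxes in the circadian clock, and the study follows it as a partner of HIF2α.

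The stem-loop is printed because it is the feature that keeps most messages of these genes out of a poly(A)-dependent library. It was found by script in GENCODE transcripts of 67 of the 70 genes, where it spans 16 bases and occurs in 10 forms. The 4 forms carried by more than 1 gene are given 5′ to 3′ with the 4 loop bases (bases 7 to 10) in capitals.
39 genes, among them HIST1H1C, HIST1H2AC, HIST1H3D and HIST2H2AA4: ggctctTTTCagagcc
9 genes, among them HIST1H2BC, HIST1H2BD, HIST1H2BJ and HIST1H2BK: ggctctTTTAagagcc
9 genes, all of the H4 family: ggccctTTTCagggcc
4 genes, HIST1H4I, HIST1H4K, HIST2H4A and HIST2H4B: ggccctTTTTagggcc
The first pair of forms was found in no H4 gene, and the last pair was found in H4 genes only. The other 6 forms belonged to 1 gene each.

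Libraries held 33182005 to 36477484 counts. ARNTL, the gene symbol of BMAL1 in the table, fell by 1.62 ± 0.13 (SE) on the log2 scale with shBMAL1 in 786O and by 2.48 ± 0.14 in WT8 (adjusted p = 4.9e-13 and 2.66e-17, edgeR), and VHL was 5.71 ± 0.06 log2 units higher in WT8 shControl than in 786O shControl. With shBMAL1 in WT8, VHL itself was called lower (log2 change −0.60), so its level was not constant in that comparison or in the interaction. What this contributed to the histone values was not tested. The renal epithelial tumour markers PAX8, PAX2, KRT8, KRT18, VIM and CA9 summed to 3414 to 5926 CPM (counts scaled to a common library size) in all 12 libraries, and the leukocyte markers PTPRC, CD3E and LYZ to 0 to 2 counts. VIM alone stood at 1791 to 4609 CPM and dominated the tumour marker sum. CA9 had 4 to 49 counts in the 786O libraries and 0 in every WT8 library. The endothelial markers CDH5, VWF and PECAM1 summed to 5 to 9 counts in 786O shControl, 1 to 13 in 786O shBMAL1, 33 to 54 in WT8 shControl, and 10 to 28 for WT8 shBMAL1, so that they were highest in the same group as the histone sum below. Their part in the histone values was not tested. In such bulk cultures, fewer cells that express a gene and less RNA per cell cannot be told apart.

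Clustered histone genes took a very small part of the counts. Summed over all 70, they had 513, 621 and 669 counts in 786O shControl, 2257, 2097 and 1989 in 786O shBMAL1, 2577, 2431 and 2613 in WT8 shControl, and 1504, 1438 and 1353 for WT8 shBMAL1. No group overlapped another, and the lowest and highest libraries stood at 0.00142% and 0.00740% of all counts. Expressed as CPM, the sums were 17.2 ± 2.08 (SD, n = 3) in 786O shControl, 60.8 ± 3.85 in 786O shBMAL1, 70.5 ± 0.496 in WT8 shControl, and 38.2 ± 1.89 for WT8 shBMAL1. Thus the summed level was 3.52 times as high with shBMAL1 as with shControl in 786O, but 0.542 times as high in WT8, and WT8 shControl stood 4.09 times above 786O shControl. These sums need no filter on low counts. The p-values below set a change against the spread between replicates within groups, estimated over all 12 libraries together. The origin of the replicates as separate cultures is given only as biological replicates.

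**Figure D1:**
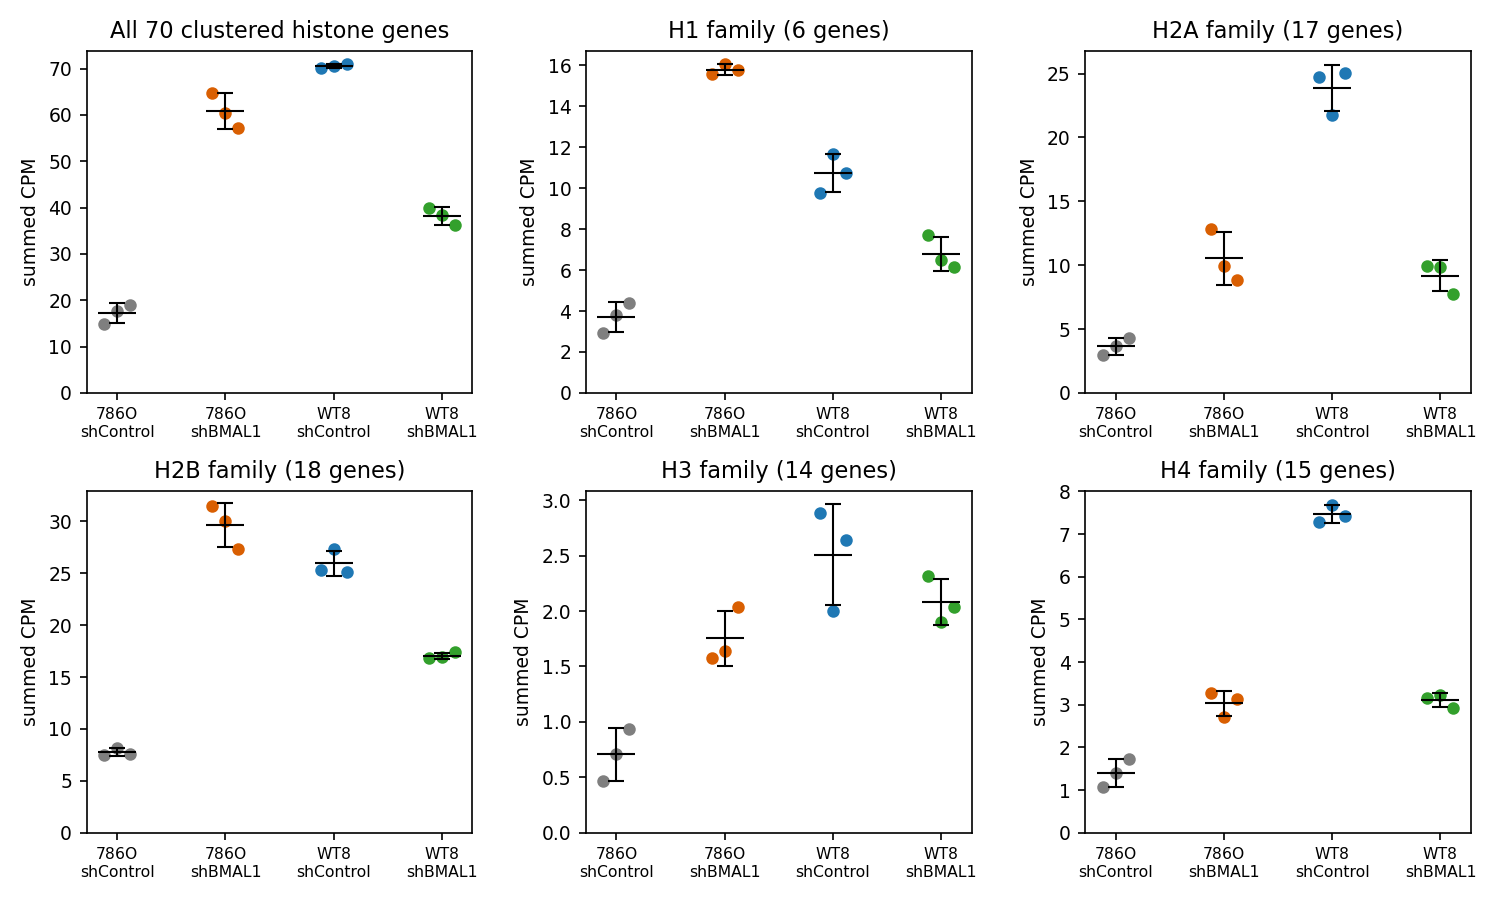
Summed CPM of all 70 clustered histone genes and of each family in the 12 libraries; points are libraries, the horizontal mark is the mean of a group and the bar its SD (n = 3). In all 6 panels 786O shControl is lowest, and the sum over all 70 genes is highest in WT8 shControl at 70.5 CPM.

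The counts were uneven among the genes. HIST1H2BK had 5235 counts over the 12 libraries, HIST1H1C 3809, HIST1H2AC 3224 and HIST1H2BD 1841, and these 4 made up 70.3% of the 20062 counts of all members, not corrected for transcript length. By family, 2 of 6 H1 genes, 9 of 17 H2A genes, 10 of 18 H2B genes, 6 of 14 H3 genes and 5 of 15 H4 genes reached the 50 counts. By cluster, 23 of 55 HIST1 genes and 9 of 11 HIST2 genes did, and 0 of 3 HIST3 genes and 0 of 1 HIST4 gene. The 38 genes below held 2.99% of the member counts, with at most 12 counts in a library, and 6 of them (HIST1H2AA, HIST1H2BA, HIST1H4F, HIST1H4G, HIST1H4L and HIST3H2A) were at 0 in all 12.

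Just inside the limit were HIST2H2BF with 57 counts, HIST1H2AK with 58 and HIST1H2BO with 67, and just outside were HIST1H1B with 49, HIST2H3D with 48 and HIST1H4E with 46. At such depth single values are imprecise: a count of 5 has an exact Poisson 95% interval of 1.62 to 11.7, against 457 to 546 for a count of 500. These intervals cover counting error only, and they are too narrow if both mates of a read pair were counted: over all genes a count of 2 was found 14904 times and a count of 1 only 11312 times.

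Of the 32 compared genes, 25 passed the filter on low counts (filterByExpr) and entered the test, and 7 did not. Only 8 of the 25 (HIST1H1C, HIST1H2AC, HIST1H2BC, HIST1H2BD, HIST1H2BK, HIST2H2AA3, HIST2H2AA4 and HIST2H4A) reached the level of the filter, 0.278 CPM, in all 3 libraries of all 4 groups. Counts over the 25 are therefore descriptions of genes that the filter let through.

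With shBMAL1 in 786O, 16 of the 25 tested genes rose and 0 fell by edgeR (16 had an unadjusted p under 0.05, and DESeq2 called 16). This stands against 24.5% of all 16838 genes tested that rose and 24.4% that fell, 48.9% called in all at an adjusted p under 0.1. The 16 were in every family: HIST1H1C, 4 of 7 H2A genes, 6 of 7 H2B genes, 2 of 4 H3 genes and 3 of 5 H4 genes. The median log2 change of the 25 was 1.45, beside 0.0007 for all genes tested. The 9 genes that did not pass the test had log2 changes from −1.72 (HIST1H4J, SE 0.87, adjusted p = 0.113, edgeR) to 1.18 (HIST1H3B, SE 0.81, adjusted p = 0.255, edgeR).

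In WT8 the direction was the opposite for most of these genes. With shBMAL1, 13 of the 25 fell and 2 rose by edgeR, and 14 of the 25 had an unadjusted p under 0.05. Beside this, 36.9% of all genes tested fell and 32.9% rose, 69.8% called in all. The median log2 change was −0.92, beside −0.04 for all genes. H4 genes fell in 4 of 5 cases, H2A genes in 4 of 7, H2B genes in 3 of 7, H3 genes in 1 of 4 and H1 genes in 1 of 2. The fall of HIST1H4J, counted among the H4 genes, was lost with DESeq2 (adjusted p = 0.141). It was also lost when any WT8 library was left out (adjusted p = 0.103 to 0.214, edgeR). The 2 that rose were HIST1H2BJ and HIST2H2AC, named because the count is small and chosen after their values were seen.

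Between the control cells of the lines, 20 of the 25 genes were higher in WT8 shControl than in 786O shControl and 0 were lower by edgeR (20 had an unadjusted p under 0.05, and DESeq2 called 19), with a median log2 difference of 1.59, beside 0.0006 for all genes. Of all genes tested, 39.3% were higher and 40.2% lower, 79.5% called in all. The 5 that did not pass the test were HIST1H1E, HIST1H2AM, HIST1H2BJ, HIST2H2AC and HIST2H3C. Among the 20, HIST1H2BG, HIST1H3B and HIST1H4J reached the level of the filter only in WT8 shControl, the group where they are high. This comparison shares its control libraries with each of the shBMAL1 comparisons, so its direction is not independent of theirs.

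The difference between the lines was tested directly as the interaction, in which the 786O log2 change is subtracted from the WT8 one. It was below 0 and called for 17 of the 25 genes and above 0 and called for 1, HIST2H2AC, beside 28.5% and 27.4% of all genes and 56.0% called in all. The call of HIST2H2AC was lost without 786O shBMAL1 replicate 3 (adjusted p = 0.101, edgeR), without WT8 shControl replicate 3 (0.104) and with no filter beyond 1 count (0.101). The median was −2.10, beside −0.03 for all genes. Of the 25, 12 rose in 786O and fell in WT8, 3 rose in 786O and did not pass in WT8 (HIST1H2BC, HIST1H3D and HIST2H2BE, the last of these not called in 786O without 786O shControl replicate 2, adjusted p = 0.102, edgeR), and 1 rose in both (HIST1H2BJ).

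**Figure D2:**
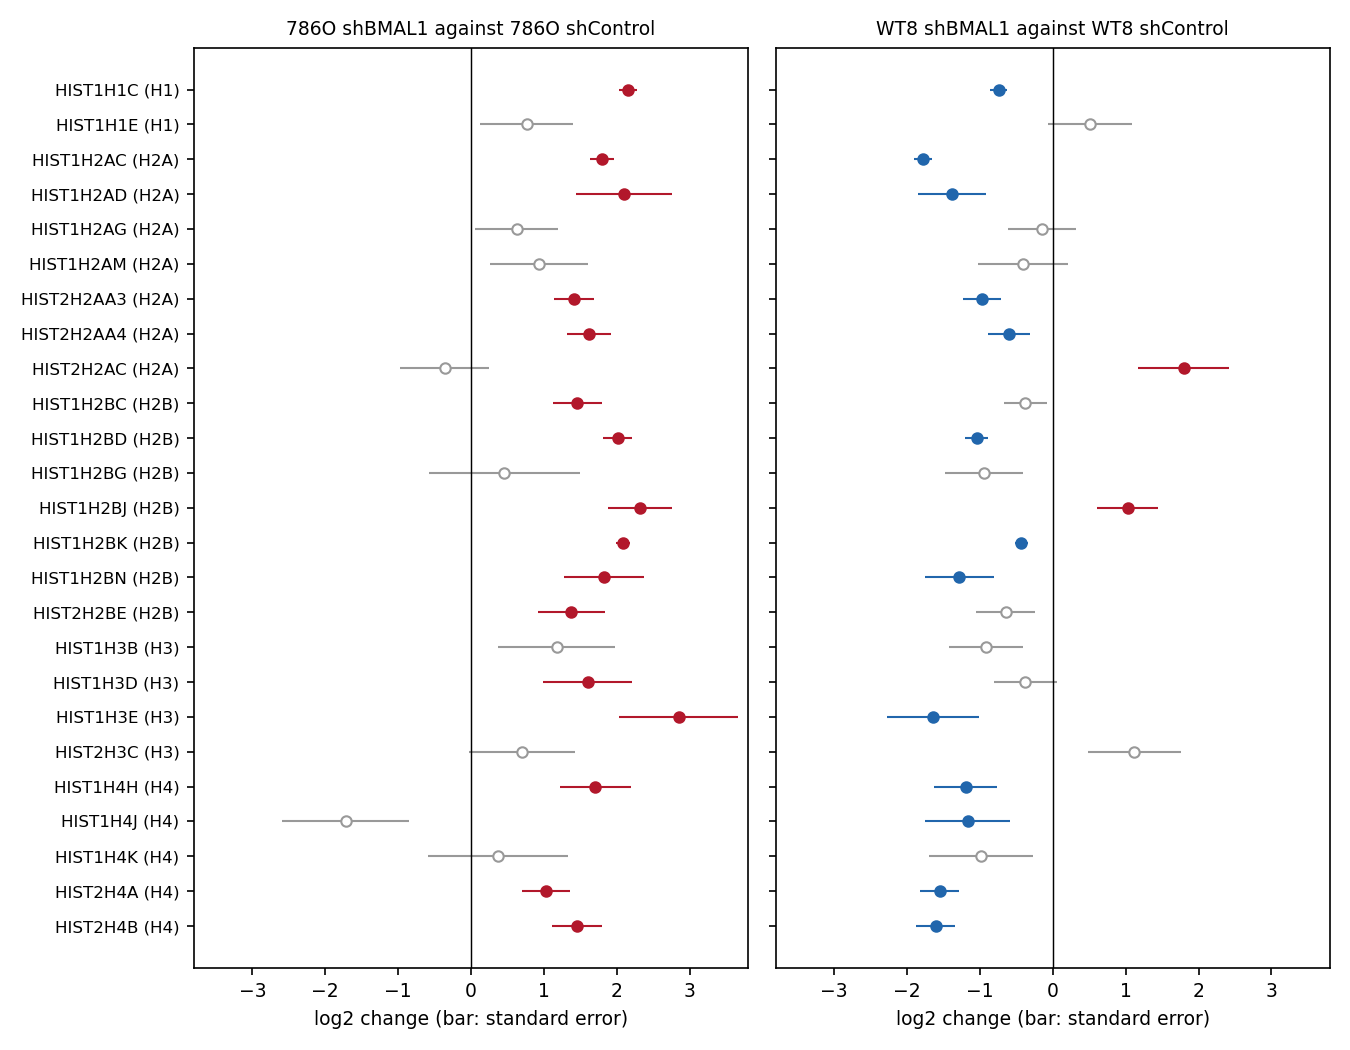
Log2 change with shBMAL1 of the 25 tested clustered histone genes in 786O (left) and WT8 (right), with the standard error as a bar; filled red points rose and filled blue points fell at an adjusted p under 0.1, open grey points did not pass. In 786O 16 points are red and 0 blue, and in WT8 13 are blue and 2 red.

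HIST1H1C (current symbol H1-2, chr6:26055740-26056470 on GRCh38) encodes a linker histone that is also made outside S phase. It stood at 2.71, 3.57 and 4.12 CPM in 786O shControl, 15.1, 15.9 and 15.4 in 786O shBMAL1, 9.62, 11.1 and 10.7 in WT8 shControl, and 7.10, 6.04 and 5.68 for WT8 shBMAL1. None of the groups overlapped. It rose by 2.15 ± 0.12 log2 units (SE, adjusted p = 1.7e-16, edgeR) in 786O and fell by 0.74 ± 0.12 (adjusted p = 1.1e-06, edgeR) in WT8, and the interaction was −2.89 ± 0.17. WT8 shControl was 1.59 ± 0.13 higher than 786O shControl. HIST1H1E (H1-4, chr6:26156329-26157115), the other H1 gene compared, had 4, 5 and 5 counts in 786O shControl, 11, 6 and 7 in 786O shBMAL1, 5, 12 and 3 in WT8 shControl, and 11, 8 and 11 for WT8 shBMAL1. It passed no test, and its groups overlapped in WT8.

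HIST1H2AC (H2AC6, chr6:26124172-26124690), a core H2A gene, had the largest log2 difference between the control cells among the 25 genes. It stood at 1.22, 1.37 and 1.76 CPM in 786O shControl, 5.89, 4.75 and 4.54 in 786O shBMAL1, 18.6, 16.3 and 19.2 in WT8 shControl, and 6.11, 4.95 and 4.71 for WT8 shBMAL1. The WT8 shControl libraries were above all others, and the shBMAL1 libraries of the lines overlapped. It rose by 1.80 ± 0.16 (adjusted p = 2.69e-11, edgeR) in 786O, fell by 1.78 ± 0.12 (adjusted p = 3.64e-15, edgeR) in WT8, and differed by 3.63 ± 0.15 between the control cells (adjusted p = 3.65e-22, edgeR). Its interaction was −3.57 ± 0.20.

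HIST2H2AA3 and HIST2H2AA4 (chr1:149842218-149842750 and chr1:149851061-149851594) are near-identical copies of an H2A gene, so reads may have been split between them. HIST2H2AA4 stood at 0.379, 0.686 and 1.08 CPM in 786O shControl, 3.10, 1.99 and 1.52 in 786O shBMAL1, 1.82, 1.94 and 1.47 in WT8 shControl, and 0.904, 1.42 and 1.12 for WT8 shBMAL1, and the groups did not overlap within a line. As 1 gene, the copies had 34, 44 and 58 counts in 786O shControl, 163, 127 and 103 in 786O shBMAL1, 129, 125 and 112 in WT8 shControl, and 69, 83 and 71 for WT8 shBMAL1. The summed copies rose by 1.53 ± 0.21 (adjusted p = 2.18e-07, edgeR) in 786O and fell by 0.77 ± 0.20 (adjusted p = 9.43e-04, edgeR) in WT8. The fall of HIST2H2AA4 alone in WT8, −0.60 ± 0.29 (adjusted p = 0.0676, edgeR), was lost when any of 4 of the 6 WT8 libraries was left out.

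HIST1H2BK (H2BC12, chr6:27138293-27146858) is an H2B gene for which RefSeq lists 2 messages. It stood at 4.52, 5.49 and 4.92 CPM in 786O shControl, 22.2, 21.4 and 19.8 in 786O shBMAL1, 13.0, 13.0 and 13.3 in WT8 shControl, and 9.36, 9.44 and 10.4 for WT8 shBMAL1. All 4 groups were free of overlap, with 786O shBMAL1 on top. It rose by 2.08 ± 0.10 (adjusted p = 7.35e-19, edgeR) in 786O, fell by 0.43 ± 0.09 (adjusted p = 1.42e-04, edgeR) in WT8 and was 1.40 ± 0.10 higher in WT8 shControl than in 786O shControl. The interaction was −2.51 ± 0.14.

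HIST1H2BD (H2BC5, chr6:26158121-26171349), a further H2B gene with 2 RefSeq messages, stood at 1.37, 0.715 and 0.995 CPM in 786O shControl, 4.42, 4.23 and 3.79 in 786O shBMAL1, 8.24, 9.20 and 6.63 in WT8 shControl, and 4.23, 3.66 and 3.77 for WT8 shBMAL1. As with HIST1H2AC, WT8 shControl was above all others and the shBMAL1 libraries of the lines overlapped. It rose by 2.01 ± 0.20 (adjusted p = 1.55e-10, edgeR) in 786O, fell by 1.04 ± 0.15 (adjusted p = 3.42e-07, edgeR) in WT8 and differed by 2.96 ± 0.19 between the control cells. The interaction was −3.06 ± 0.25.

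H3 genes had few counts. HIST1H3D (H3C4, chr6:26196784-26199293) had 1, 9 and 2 counts in 786O shControl, 7, 14 and 16 in 786O shBMAL1, 43, 18 and 27 in WT8 shControl, and 21, 24 and 25 for WT8 shBMAL1. The groups overlapped within each line, and those of the control cells did not. It rose by 1.60 ± 0.61 in 786O (adjusted p = 0.0342, edgeR), a call lost without 786O shControl replicate 1, 786O shControl replicate 3 or 786O shBMAL1 replicate 3 (adjusted p = 0.158, 0.133 and 0.124, edgeR). Its RefSeq span holds HIST1H2AD on the same strand, so reads of these 2 genes may be shared.

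HIST1H3B (H3C2, chr6:26031589-26032099) had 2 counts in each 786O shControl library, 2, 6 and 6 in 786O shBMAL1, 14, 20 and 19 in WT8 shControl, and 16, 5 and 8 for WT8 shBMAL1. Only the control cells differed clearly, with 53 counts against 6, a ratio of 9.26 per total count with an exact 95% interval of 3.98 to 26.4 from counting error alone, again too narrow if mates were counted separately. HIST1H3B reached the level of the filter on low counts only in WT8 shControl, the group where it is high. The ratio therefore describes a gene that this group let through and is no separate support. Its interaction, −2.10 ± 0.95 (adjusted p = 0.0665, edgeR), was lost in 9 of the 12 fits that left out a library. HIST1H3E, named after its values were seen, showed the highest log2 change of the 25 genes in 786O, 2.85 ± 0.81 (adjusted p = 4.51e-03, edgeR), from 4 counts against 31, a ratio of 7.81 with an interval of 2.76 to 30.4 with the same limit. This interval makes no allowance for picking the largest of the 25 changes. HIST1H3E had too few counts to be tested when counts were halved.

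HIST2H4A and HIST2H4B (chr1:149832657-149833052 and chr1:149844488-149861240) encode the same H4 protein from near-identical copies. Within the RefSeq span of HIST2H4B lie HIST2H2AA4 and HIST2H3A on the other strand. Use of strand in counting is not known, so reads of these genes may be shared. HIST2H4A stood at 0.321, 0.515 and 0.455 CPM in 786O shControl, 0.689, 0.979 and 0.977 in 786O shBMAL1, 2.39, 2.26 and 3.02 in WT8 shControl, and 0.664, 0.909 and 1.04 for WT8 shBMAL1. HIST2H4B stood at 0.263, 0.257 and 0.512, at 1.21, 0.748 and 0.890, at 3.37, 3.31 and 2.37, and at 1.14, 1.07 and 0.750 in the same order. For both, WT8 shControl was above all other libraries and 786O shControl below them. Summed, the copies rose by 1.23 ± 0.22 in 786O (adjusted p = 2.39e-05, edgeR), fell by 1.58 ± 0.18 in WT8 (adjusted p = 1.07e-09, edgeR) and differed by 2.84 ± 0.20 between the control cells.

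**Figure D3:**
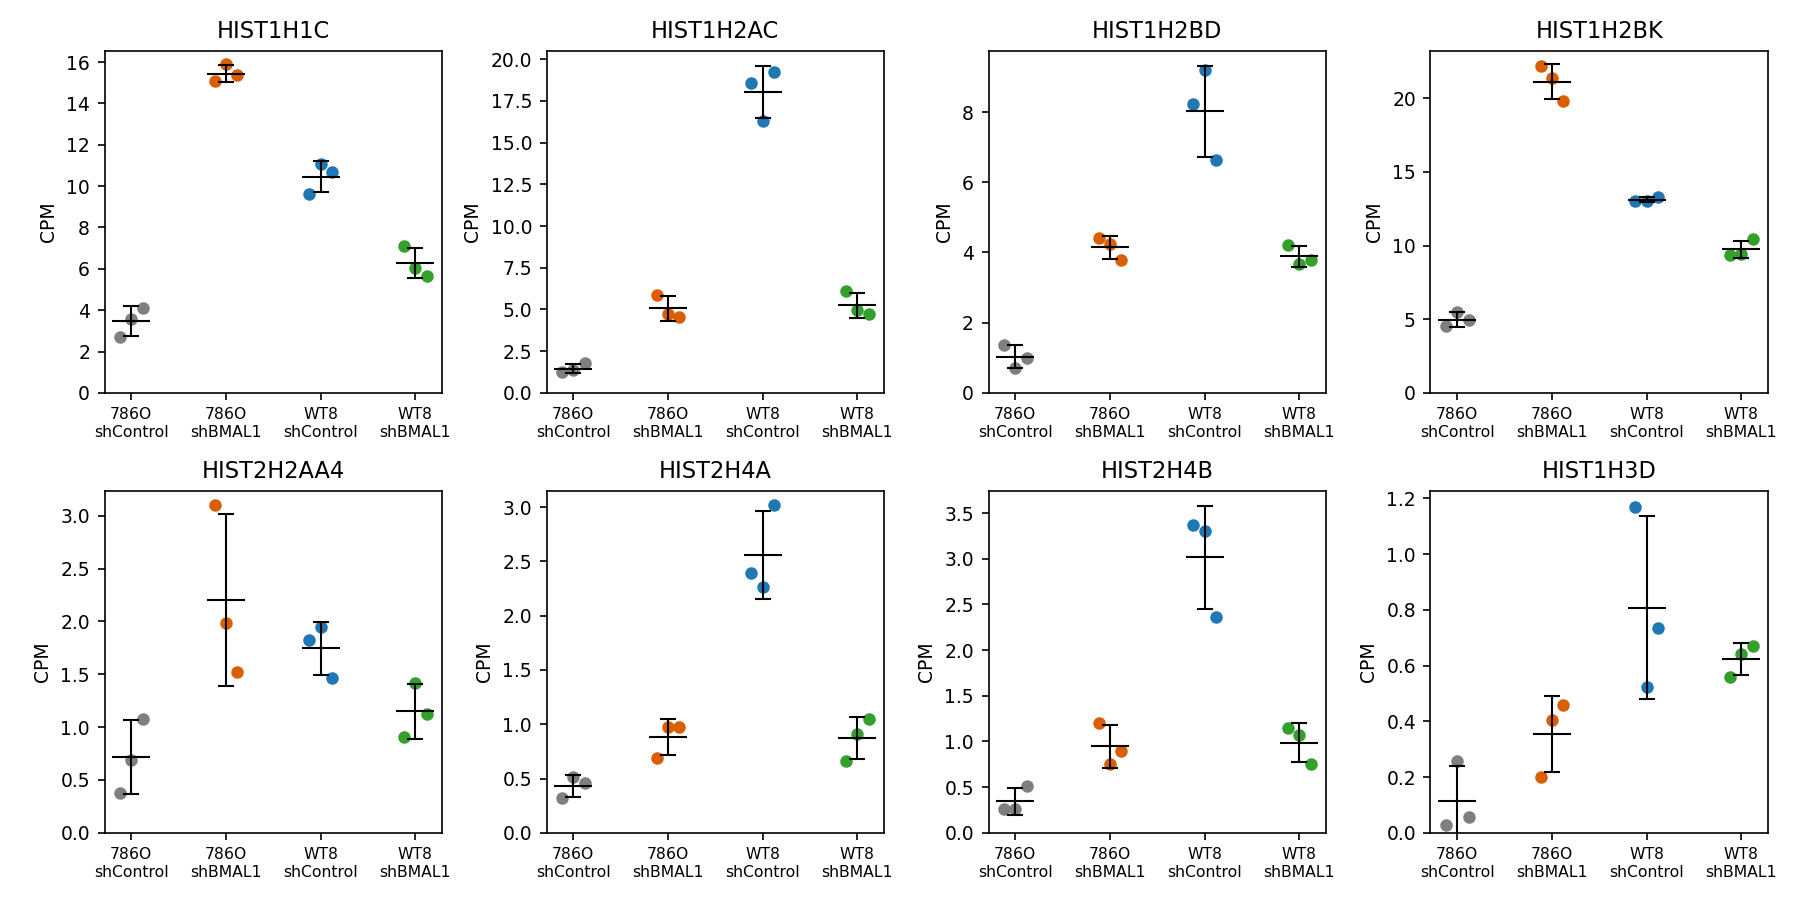
CPM of 8 clustered histone genes in the 12 libraries; points are libraries, the horizontal mark is the mean of a group and the bar its SD (n = 3). HIST1H1C and HIST1H2BK are highest in 786O shBMAL1, and HIST1H2AC, HIST1H2BD, HIST2H4A and HIST2H4B in WT8 shControl.

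The genes thus did not all rank the groups in the same way. Of the 32 compared genes, 27 had their lowest summed count in 786O shControl, 21 had their highest in WT8 shControl, 7 in 786O shBMAL1 and 4 in WT8 shBMAL1. These ranks use unscaled counts, many of them small, and the matching shares over all genes were not counted. For scale, 39.3% of all genes tested were called higher in WT8 shControl than in 786O shControl. The ratio of HIST1H2AC to HIST1H2BK counts within a library, which does not depend on scaling, was 0.250 to 0.358 in 786O shControl and 0.222 to 0.265 in 786O shBMAL1, but 1.25 to 1.45 in WT8 shControl, and 0.452 to 0.653 for WT8 shBMAL1. H2A genes accordingly took 33.8% ± 2.53 (SD, n = 3) of the summed member CPM in WT8 shControl and 17.2% ± 2.32 in 786O shBMAL1. H1 genes took 15.2% ± 1.29 and 26.1% ± 1.85 in the same groups.

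Among the families, the summed H4 level was 2.16 times as high with shBMAL1 in 786O and 0.416 times as high in WT8, and the summed H2A level 2.88 and 0.385 times. The H1 sum went to 4.26 and 0.632 times, the H2B sum to 3.81 and 0.657 times, and the H3 sum to 2.48 and 0.831 times. The H3 libraries of WT8 overlapped, at 2.00 to 2.88 CPM with shControl and 1.90 to 2.31 with shBMAL1.

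The 12 genes that rose in 786O and fell in WT8 were fewer than the 13 that did not, of which 7 were called in neither line. Only 2 genes rose in WT8. HIST1H2BJ, an H2B gene, had 6, 13 and 4 counts in 786O shControl, 52, 37 and 27 in 786O shBMAL1, 7, 14 and 17 in WT8 shControl, and 27, 25 and 29 for WT8 shBMAL1, higher with shBMAL1 in all 3 replicates of both lines. It rose by 2.32 ± 0.44 in 786O and by 1.03 ± 0.42 in WT8 (adjusted p = 5.18e-05 and 0.0333, edgeR), and the WT8 call was lost without WT8 shControl replicate 1 (log2 0.72, adjusted p = 0.172, edgeR). HIST2H2AC, an H2A gene, had 3 to 8 counts in 786O, 6, 2 and 2 in WT8 shControl, and 11, 15 and 11 for WT8 shBMAL1. It rose by 1.80 ± 0.62 in WT8 (adjusted p = 0.012, edgeR). It passed the filter on low counts only through WT8 shBMAL1, the group where it is high, and had too few counts to be tested when counts were halved.

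The 7 compared genes below the filter had 0 to 21 counts in a library. When a summed count of 50 or more was used as the filter for all genes, so that all 32 could be tested, 17 rose and 1 fell with shBMAL1 in 786O, beside 23.0% and 23.6% of the 17569 genes then tested. In WT8 2 rose and 14 fell, beside 32.1% and 35.6%, and 22 were higher and 0 lower in WT8 shControl by edgeR, beside 38.2% and 39.2%. The gene that fell in 786O was HIST1H2BH (9, 10 and 10 counts with shControl and 4, 1 and 5 with shBMAL1, adjusted p = 0.0796, edgeR). The 38 genes that were not compared summed to 25 to 30 counts in 786O shControl, 41 to 65 in 786O shBMAL1, 52 to 54 in WT8 shControl, and 58 to 76 for WT8 shBMAL1. Their unscaled sums were higher with shBMAL1 in WT8, where those of the compared genes were lower. As library sizes were not corrected for here, the nearest values, 54 and 58, do not set these groups apart.

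By position, the members stood in 3 blocks on chromosome 6 and 1 large block on chromosome 1 (blocks split at gaps over 300000 bases between starts). In the block at chr6:25726063-26285534, 8 of 11 tested genes rose in 786O and 6 fell in WT8. At chr6:27132316-27147562, 2 of 3 rose in 786O, and 1 fell and 1 rose in WT8. At chr6:27807479-27893891, 1 of 4 rose in 786O and 2 fell in WT8. In the HIST2 block at chr1:149782689-149887965, 5 of 7 tested genes rose in 786O, and 4 fell and 1 rose in WT8. Calls were thus made in every block with tested genes. Beside these counts, 24.5% of all genes tested rose in 786O, and 36.9% fell and 32.9% rose in WT8. The 1 of 4 that rose in 786O at chr6:27807479-27893891 is near that share.

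Many H2A and H2B genes share a divergent promoter. Among the 65 members with a RefSeq promoter entry, which gives the strand, 12 pairs started on opposite strands 194 to 248 bases apart, with HIST1H3D, which shares the start of HIST1H2AD, in 1 of them. Both genes were tested in 3 pairs. HIST1H2AC and HIST1H2BC, 246 bases apart, changed by 1.80 and 1.46 log2 units in 786O, but by −1.78 and −0.38 in WT8, where HIST1H2BC did not pass the test (SE 0.30, adjusted p = 0.275, edgeR). HIST2H2AC and HIST2H2BE, 236 bases apart, changed by −0.36 and 1.38 in 786O and by 1.80 and −0.65 in WT8. HIST1H2AG and HIST1H2BJ, 248 bases apart, changed by 0.63 and 2.32 in 786O and by −0.14 and 1.03 in WT8. Partners in a pair therefore had unlike values in at least 1 line, though their difference was not tested.

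Promoters of 65 members were read from RefSeq (GRCh38.p14, from 250 bases before to 50 bases after the start; HIST1H2AD and HIST1H3D share 1 window) and searched on both strands. The E-box CACGTG, the motif of BMAL1 and CLOCK, was in 0 of 65, beside 7.43% of 27305 promoters of the same length, and the hypoxia response core ACGTG, which also lies within the E-box, was in 9 of 65, beside 21.6%. The hypoxia response element as the paper writes it, N(G/A)CGTG, also allows GCGTG. That form was not searched for, so the count covers the ACGTG form only. The histone octamer ATTTGCAT was in 26 (14 of 18 H2B and 11 of 16 H2A genes), beside 1.80%. The CCAAT box was in 55, beside 35.7%, and the TATA box TATAAA in 43, beside 12%. These counts describe letters in a window and not binding.

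The 250 bases before the start are printed for the gene with the most counts, HIST1H2BK (chr6:27146859-27147108, minus strand), and for HIST1H2AC (chr6:26123922-26124171, plus strand), because these genes ranked the groups differently. Both are given 5′ to 3′ on the strand of the gene, with matches to the octamer, CCAAT box and TATA box on either strand in capitals.
HIST1H2BK: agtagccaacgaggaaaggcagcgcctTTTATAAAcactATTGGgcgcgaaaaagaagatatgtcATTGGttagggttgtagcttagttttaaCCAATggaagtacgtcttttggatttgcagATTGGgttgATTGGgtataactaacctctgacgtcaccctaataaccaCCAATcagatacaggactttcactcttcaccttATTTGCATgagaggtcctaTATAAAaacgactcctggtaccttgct
HIST1H2AC: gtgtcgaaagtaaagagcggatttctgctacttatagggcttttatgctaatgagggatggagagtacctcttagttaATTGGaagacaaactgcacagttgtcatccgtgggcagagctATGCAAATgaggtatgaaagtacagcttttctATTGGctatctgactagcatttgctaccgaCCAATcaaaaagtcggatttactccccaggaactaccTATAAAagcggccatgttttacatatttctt
Both windows held an octamer, CCAAT boxes and a TATA box, and neither held an E-box or the ACGTG core.

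Longer messages are annotated for some members, which matters for an mRNA library. In GENCODE, 19 of the 67 matched genes had a transcript that ran over 20 bases past the stem-loop or lacked it, and the other 48 ended at it. Of the 19, 12 were compared and 11 tested, and all 11 rose with shBMAL1 in 786O, 8 fell and 1 rose in WT8. Of the 48, 19 were compared and 13 tested, of which 5 rose in 786O, and 5 fell and 1 rose in WT8. Over all genes tested, 24.5% rose in 786O, and 36.9% fell and 32.9% rose in WT8. The 5 of 13 that fell in WT8 are near that share. The near-identical copies HIST2H2AA3 and HIST2H2AA4 fell in different classes, and HIST2H4A and HIST2H4B were both in the class with longer transcripts. Reads may have been split between such copies, so the class counts are not all of separate signals. The classes also differed in depth, with a median summed count of 183 against 29, and the difference between them was not tested. HIST1H1C and HIST1H2BK, with 3809 and 5235 counts, were in the class that ends at the stem-loop by GENCODE. RefSeq, however, lists 2 messages of HIST1H2BK over a span of 8566 bases and 2 of HIST1H3D, of the same class, over 2510. By RefSeq, 8 members spanned over 1000 bases, and of these 7 were tested, 7 rose in 786O and 4 fell in WT8. Of the 18 tested with shorter spans, 9 rose in 786O, and 9 fell and 2 rose in WT8. Which of the annotated ends the reads came from cannot be read from counts per gene.

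Of the genes of histone transcription and message processing, NPAT, CASP8AP2, SLBP, LSM10, LSM11 and ZNF473 had log2 changes from −0.43 to 0.22 with shBMAL1 in 786O, smaller in size than those of the 16 histone genes that rose. NPAT stood at 22.3, 21.6 and 21.2 CPM in 786O shControl, 22.0, 19.4 and 18.6 in 786O shBMAL1, 13.9, 14.2 and 10.8 in WT8 shControl, and 20.7, 20.9 and 25.01 for WT8 shBMAL1. Only WT8 shControl stood apart. With shBMAL1 it rose by 0.78 ± 0.09 in WT8 (adjusted p = 6.26e-09, edgeR), and its change in 786O was −0.12 ± 0.09 (adjusted p = 0.321, edgeR).

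CASP8AP2, which brings NPAT and processing factors together, stood at 31.4, 31.4 and 29.3 CPM in 786O shControl, 31.4, 27.7 and 28.4 in 786O shBMAL1, 14.4, 16.2 and 12.4 in WT8 shControl, and 32.4, 32.99 and 29.9 for WT8 shBMAL1. Again WT8 shControl alone was low, and CASP8AP2 rose by 1.15 ± 0.08 in WT8 (adjusted p = 1.15e-14, edgeR).

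SLBP, which binds the stem-loop, stood at 121.7, 120.5 and 117.5 CPM in 786O shControl, 141.7, 142.5 and 123.8 in 786O shBMAL1, 50.4, 48.0 and 45.6 in WT8 shControl, and 72.0, 70.8 and 76.9 for WT8 shBMAL1. All groups were free of overlap. SLBP rose by 0.18 ± 0.05 in 786O and by 0.61 ± 0.06 in WT8 (adjusted p = 4.91e-03 and 6.11e-12, edgeR), and was 1.32 ± 0.06 lower in WT8 shControl than in 786O shControl.

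Of the U7 components, LSM11 stood at 5.11, 4.63 and 4.52 CPM in 786O shControl, 3.56, 3.71 and 3.28 in 786O shBMAL1, 2.20, 1.86 and 2.18 in WT8 shControl, and 3.48, 4.33 and 4.203 for WT8 shBMAL1. It fell in 786O by 0.43 ± 0.15 and rose in WT8 by 0.94 ± 0.16 (adjusted p = 0.0206 and 4.83e-06, edgeR). LSM10 stood at 14.5 to 19.8 CPM in all 12 libraries, with log2 changes of 0.22 ± 0.09 in 786O and −0.03 ± 0.09 in WT8. ZNF473 stood at 10.9, 12.8 and 11.3, at 13.2, 13.8 and 13.96, at 17.6, 16.1 and 17.3, and at 22.8, 18.3 and 20.4 CPM in the groups in the same order, with log2 changes of 0.22 ± 0.09 and 0.27 ± 0.09 in 786O and WT8.

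Over the 20 genes listed for transcription and processing of histone messages, 5 rose and 2 fell with shBMAL1 in 786O, 13 rose and 5 fell in WT8, and 8 were higher and 10 lower in WT8 shControl than in 786O shControl. Of 20 histone chaperones, 8 rose and 7 fell in 786O, 15 rose and 3 fell in WT8, and 4 were higher and 15 lower in WT8 shControl. Of all genes tested, 48.9%, 69.8% and 79.5% were called in these comparisons, which is the background for each of these lists.

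In the WT8 comparisons, S phase genes moved the other way from the clustered histone genes. All 20 listed S phase genes were lower in WT8 shControl than in 786O shControl (median log2 −2.64) and all 20 rose with shBMAL1 in WT8 (median 2.48), while in 786O 6 rose and 4 fell (median 0.02). Across all genes tested, 40.2% were lower in WT8 shControl and 32.9% rose with shBMAL1 in WT8. In 786O, 24.5% of all genes rose and 24.4% fell. Their summed level was 3304 to 3338 CPM in 786O shControl, 3443 to 3530 in 786O shBMAL1, 582 to 598 in WT8 shControl, and 2899 to 3044 for WT8 shBMAL1. The clustered histone sum was thus highest in the group where the S phase sum was lowest, and in 786O it differed 3.52 times between groups whose S phase sums were 3321 and 3473 CPM on average. The part of cell cycle phase in the histone values was not tested.

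Replication-independent histone genes give polyadenylated messages throughout the cycle. Of the 11 tested from a list of 12, 3 rose and 5 fell with shBMAL1 in 786O, 6 rose and 3 fell in WT8, and 4 were higher and 7 lower in WT8 shControl. The shares of all genes called in these comparisons were 48.9%, 69.8% and 79.5%. RNAs without a poly(A) tail are a measure of how much such RNA entered a library, and of 19 listed, 4 had enough counts to be tested. All 4 (RN7SK, RMRP, SNORD3A and SCARNA12) were higher in WT8 shControl than in 786O shControl, 0 were called in 786O and 1, RN7SK, fell with shBMAL1 in WT8 (log2 −1.30 ± 0.31, adjusted p = 4.69e-04, edgeR). Among all genes tested, 39.3% were higher in WT8 shControl and 36.9% fell with shBMAL1 in WT8. RMRP, with 0 to 4 counts in 786O, stayed below the level of the filter on low counts in every 786O library. SNORD3A reached that level in all 3 libraries of a group only in WT8. Both were thus tested through the line where they are high, and their calls between the control cells are no separate support. Unadjusted p-values under 0.05 were also found for 0 of the 4 in 786O. Summed over all 19, they had 100 to 109 counts in 786O shControl, 78 to 120 in 786O shBMAL1, 186 to 241 in WT8 shControl, and 140 to 174 for WT8 shBMAL1. They thus overlapped between the groups of 786O, where the histone sum rose, and stood higher in WT8 shControl, as the histone sum did. The part of such carry-over in the histone values was not tested.

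**Figure D4:**
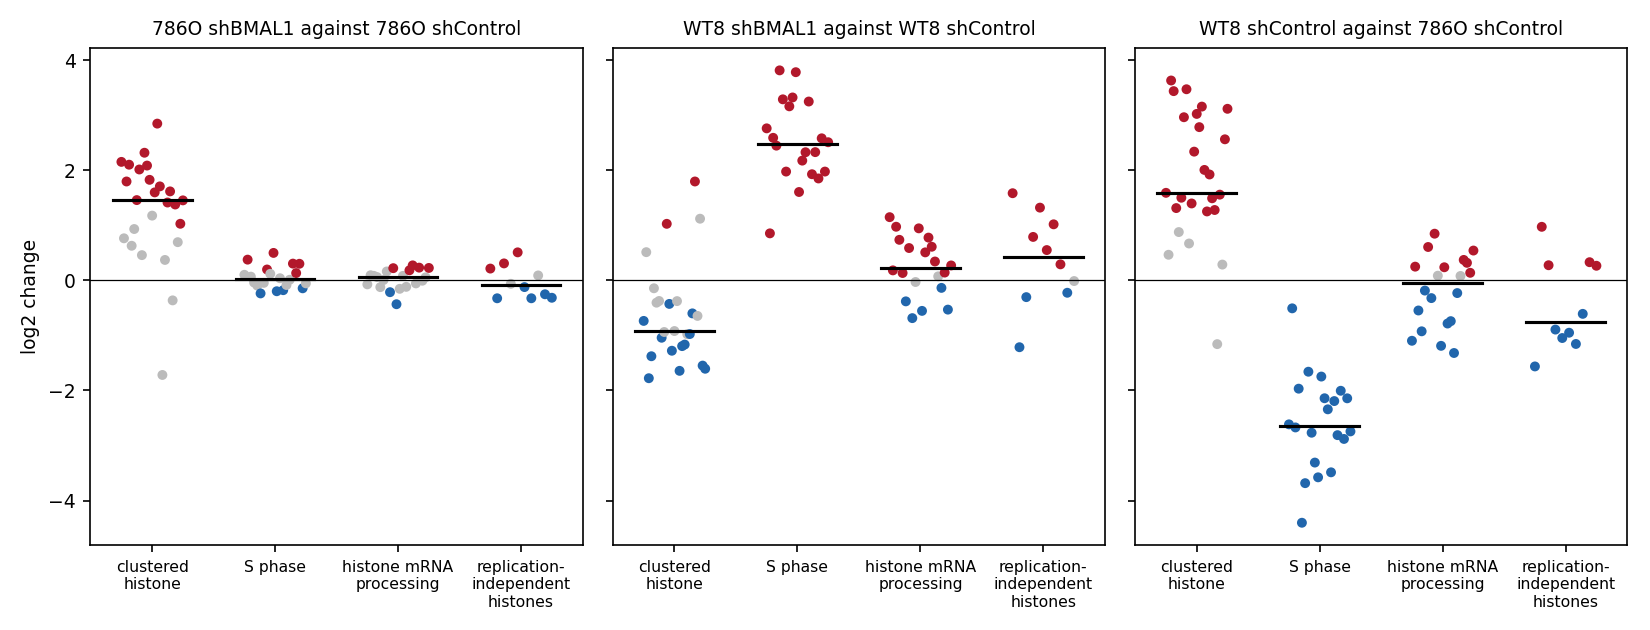
Log2 change of the tested clustered histone genes beside 3 lists in 3 comparisons; each point is a gene, red called higher, blue called lower and grey not called at an adjusted p under 0.1, and the black line is the median. H1F0, which had 0 or 1 count in every WT8 library, is left out of the replication-independent histones. The medians of the clustered histone genes are 1.45, −0.92 and 1.59, and those of the S phase genes 0.02, 2.48 and −2.64.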

How the data were processed

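RNA of 12 cultures was sequenced as stranded mRNA libraries; the labels do not describe the poly(A) step. The authors deposited 1 table of estimated counts per gene (38074 lines), in which 0.028 stands in for 0. Their processing notes name STAR, DESeq2 and hg38, whereas the methods name SeqMan NGen and GRCh37. The order of lines follows GRCh38 (103 of 22121 neighbouring pairs out of order, against 458 for GRCh37), and use of strand in counting is not given in the sources used here. The stand-in was set to 0, lines that share a name were summed and values rounded; all 840 values of the histone genes were whole. Library totals were 33182005 to 36477484.

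Groups were compared with edgeR 4.0.16 (R 4.3.3): filterByExpr, TMM, a robust quasi-likelihood F test on all 12 libraries without a block, and Benjamini-Hochberg adjustment over 16838 genes, called at 0.1. The common biological coefficient of variation was 5.70%. SE is the log2 change divided by the root of F. DESeq2 1.42.0, other scalings, filters and thresholds, halved counts, summed copies, the replicate block and leaving out each library were alternatives. The test was checked on simulated data. The design had assumed whole counts.

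Values per library are given for the 2 genes of highest mean CPM in each family, the 3 largest called rises and falls per comparison with a mean of at least 50 counts, and NPAT, CASP8AP2, SLBP, LSM10, LSM11 and ZNF473; other genes named were chosen after their values were seen. Members and lists were chosen with earlier results of these data known. Positions and promoters come from RefSeq (GRCh38.p14), which matched all 70 symbols, and stem-loops from GENCODE transcripts.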

Additional observations from a re-analysis of the deposited data

Results flagged for a closer look

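For 9 of the 10 clustered histone genes that the naming rule singled out, the change with shBMAL1 differed between WT8 and 786O by edgeR's quasi-likelihood test of the interaction, with Benjamini-Hochberg adjustment over all genes tested. Each value is the WT8 log2 change less the 786O one, and all 9 were below 0. Over the 25 tested genes the test called 17 below 0 and 1 above 0, HIST2H2AC at 2.16 ± 0.88 (adjusted p = 0.0402). Across all genes tested it called 28.5% below 0 and 27.4% above 0, 56.0% in all. HIST1H2AC stood at −3.57 ± 0.20 (SE, adjusted p = 3.56e-17), HIST2H4B at −3.06 ± 0.43 (adjusted p = 2.48e-07) and HIST1H2BD at −3.06 ± 0.25 (adjusted p = 9.67e-13). HIST1H1C stood at −2.89 ± 0.17 (adjusted p = 1.09e-16), HIST2H4A at −2.58 ± 0.42 (adjusted p = 3.31e-06) and HIST1H2BK at −2.51 ± 0.14 (adjusted p = 9.3e-18). HIST2H2AA4 stood at −2.22 ± 0.42 (adjusted p = 3.54e-05). The remaining values, −2.10 ± 0.95 for HIST1H3B (adjusted p = 0.0665) and −1.97 ± 0.75 for HIST1H3D (adjusted p = 0.0276), rest on few counts. The former was lost in 9 of the 12 fits without 1 library, and the latter without WT8 shControl replicate 1 (−1.61, adjusted p = 0.101).

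Among the named genes of histone transcription and message processing, the same test was passed in the opposite direction by LSM11 (1.38 ± 0.22, adjusted p = 2.87e-06), CASP8AP2 (1.22 ± 0.11, adjusted p = 2.37e-11), NPAT (0.89 ± 0.13, adjusted p = 5.49e-07) and SLBP (0.43 ± 0.08, adjusted p = 1.35e-05). LSM10 differed by −0.25 ± 0.12 (adjusted p = 0.0846).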

How the results depend on the processing

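No result changed its direction under the alternatives run. With counts halved, where 15 histone genes could be tested, the median log2 value was 1.79 for shBMAL1 in 786O, 2.00 between the control cells and −2.56 for the interaction; fewer genes tested is part of that setting. When each library was left out in turn, called genes numbered 15 to 18 in 786O, 12 to 15 in WT8, 18 to 22 between the control cells and 16 to 18 for the interaction. The medians ran from 1.28 to 1.47, from −0.96 to −0.65 (the latter without WT8 shBMAL1 replicate 3), from 1.47 to 1.70 and from −2.18 to −1.88. Of the called genes, 14 of 16, 10 of 15, 17 of 20 and 14 of 18 were called in all of these fits. With the replicate number as a block, 16, 14, 20 and 17 genes were called with medians of 1.43, −0.92, 1.59 and −2.10; same-numbered libraries correlated by −0.046 to 0.048, so the block rests on a shared number only. Of the values of single named genes, 37 lost and 3 gained their call under an alternative, and 1232 did neither. Scaling by library totals alone moved the median of all genes by 0.12 between the control cells. Leaving out pseudogenes was not run, because no member is named or annotated as one. Depth limits the genes with few counts, 38 of which were not compared.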

Other observations

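H1F0, a replication-independent linker histone gene of cells that leave the cycle, had 116, 106 and 98 counts in 786O shControl and 72, 90 and 73 in 786O shBMAL1, and 0 or 1 count in every WT8 library. It was chosen after its values were seen. Over all 70 clustered histone genes, a count of 2 was found 93 times and a count of 1 only 60 times.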
